A study of Mus musculus with 20 samples.

Results

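Genome-wide C/EBPβ peaks of wild-type 3T3-L1 cells without doxycycline (WT −Dox) were compared with those of the same line after doxycycline induction in the presence of a PARP inhibitor (WT +Dox +BYK). Peaks of both lists were merged where they overlapped by at least 1 bp, which gave 19961 sites, against 23854 sites when all 5 peak lists of the series were merged. A site was called shared if both lists had a peak in it, and otherwise counted as found in WT −Dox only or in WT +Dox +BYK only. There were 9306 shared sites, 1602 in WT −Dox only and 9053 in WT +Dox +BYK only, and the last class is called gained and the second lost as names for list membership alone.

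C/EBPβ binding had been measured with ChIP-seq, in which chromatin is immunoprecipitated and its DNA sequenced, on 3T3-L1 preadipocytes of the mouse, which form fat cells in culture. Both groups carried a wild-type C/EBPβ transgene (the LAP isoform, HA-tagged) under doxycycline control and were held at confluence under contact inhibition. The WT −Dox cells received vehicle, and the WT +Dox +BYK cells received BYK204165 1 h before 1 µg/ml doxycycline (Dox) given for 8 h. The series holds 20 libraries in 5 conditions, with 2 ChIP libraries in each condition, and the other 3 conditions were WT +Dox and a line expressing C/EBPβ with its PARylation sites mutated, without (Mut −Dox) and with Dox (Mut +Dox). The deposited data used here are 1 peak list per condition with no replicate numbers, so the spread between replicates is unknown and no p-value was computed. The labels name no group with inhibitor and without Dox, so the effects of Dox and of BYK cannot be told apart in this comparison. The ChIP was against C/EBPβ, so endogenous and induced protein are not separated. The dose of BYK204165 is not given in the sources used here.

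C/EBPβ is a basic leucine zipper transcription factor that is active early in fat cell differentiation and precedes PPARγ and C/EBPα, the factors that carry the mature fat cell program. It binds DNA as a dimer, and the palindrome TTGCGCAA is its textbook high-affinity site. PARP-1 attaches chains of ADP-ribose to proteins, using NAD+ as its substrate, and BYK204165 is an inhibitor selective for PARP-1. The series title names PARylation of C/EBPβ and its activity in the adipogenic program as the subject of the study.

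The promoters below illustrate the classes: shared peaks over motif matches at Ptgs2, Smad6, Il6 and Pparg, gained peaks at Lcn2 and Ptx3, and a lost peak at Canx. Each is the stretch of 250 bases just before a RefSeq transcription start (GRCm38.p6, the coordinates of mm10), printed 5′ to 3′ on the strand of the gene. Capitals mark matches to TTGCNNAA on either strand, which include TTGCGCAA.

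Ptgs2: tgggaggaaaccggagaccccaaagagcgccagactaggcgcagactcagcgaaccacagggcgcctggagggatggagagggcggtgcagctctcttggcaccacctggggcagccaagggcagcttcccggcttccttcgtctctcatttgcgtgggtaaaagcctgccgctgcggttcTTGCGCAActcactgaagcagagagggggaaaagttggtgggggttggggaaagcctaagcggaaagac
Smad6: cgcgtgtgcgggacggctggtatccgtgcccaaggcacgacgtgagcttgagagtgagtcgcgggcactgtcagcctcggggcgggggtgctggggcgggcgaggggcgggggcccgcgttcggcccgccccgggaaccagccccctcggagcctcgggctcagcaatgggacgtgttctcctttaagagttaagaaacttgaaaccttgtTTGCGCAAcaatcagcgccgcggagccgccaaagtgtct
Il6: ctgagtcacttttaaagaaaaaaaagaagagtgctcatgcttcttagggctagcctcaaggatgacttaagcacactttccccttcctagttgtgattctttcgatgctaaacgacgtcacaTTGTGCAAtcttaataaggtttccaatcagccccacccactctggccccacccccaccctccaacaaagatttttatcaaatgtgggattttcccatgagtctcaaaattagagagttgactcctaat
Pparg: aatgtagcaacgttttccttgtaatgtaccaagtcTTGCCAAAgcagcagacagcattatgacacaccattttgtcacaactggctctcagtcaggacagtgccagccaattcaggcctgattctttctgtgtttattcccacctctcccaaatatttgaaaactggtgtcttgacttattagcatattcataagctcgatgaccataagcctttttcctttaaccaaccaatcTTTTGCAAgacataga
Lcn2: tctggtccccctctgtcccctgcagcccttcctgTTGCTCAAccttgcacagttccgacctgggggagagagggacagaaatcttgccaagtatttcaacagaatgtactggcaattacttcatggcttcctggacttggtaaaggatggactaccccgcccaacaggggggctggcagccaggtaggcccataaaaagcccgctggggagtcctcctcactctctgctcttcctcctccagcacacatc
Ptx3: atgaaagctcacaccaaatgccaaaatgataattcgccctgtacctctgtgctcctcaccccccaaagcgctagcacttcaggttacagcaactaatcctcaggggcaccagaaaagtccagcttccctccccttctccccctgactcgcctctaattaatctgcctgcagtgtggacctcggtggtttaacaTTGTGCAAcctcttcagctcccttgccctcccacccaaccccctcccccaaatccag
Canx: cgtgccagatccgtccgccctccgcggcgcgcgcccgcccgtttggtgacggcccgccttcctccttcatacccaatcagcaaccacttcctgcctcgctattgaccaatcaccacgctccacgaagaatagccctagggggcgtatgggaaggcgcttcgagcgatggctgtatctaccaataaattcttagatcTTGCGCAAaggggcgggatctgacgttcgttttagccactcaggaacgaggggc

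These windows are chr1:150099781-150100030 (plus strand) for Ptgs2, chr9:64022060-64022309 (minus) for Smad6, chr5:30012864-30013113 (plus) for Il6 and chr6:115421816-115422065 (plus) for Pparg, whose start here lies inside the gene span. They are chr2:32387740-32387989 (minus) for Lcn2, chr3:66219637-66219886 (plus) for Ptx3 and chr11:50325674-50325923 (minus) for Canx. Ptgs2 encodes the inducible cyclooxygenase, and its palindrome begins 69 bases before the start. Smad6, an inhibitor of BMP signalling, has it 39 bases before the start. Il6, the gene of interleukin 6, has a match 128 bases before the start, and Pparg has matches at 215 and 16 bases. Lcn2, a secreted lipocalin of the acute phase, has its match 216 bases before the start, and Ptx3, a soluble pattern recognition protein, 57 bases before it. Canx, a chaperone of the endoplasmic reticulum, has the palindrome 54 bases before its start, under a WT −Dox peak that WT +Dox +BYK lacked and Mut +Dox had. That peak ranked low by the authors' score, with 53.29 at percentile 5.68 of the WT −Dox list.

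Most of the sites of uninduced cells were present after induction with inhibitor, and the induced list added nearly as many again. Of the 10908 merged sites with a WT −Dox peak, 85.3% (95% Wilson interval 84.6 to 86.0) also had a WT +Dox +BYK peak. Of the 18359 sites with a WT +Dox +BYK peak, 50.7% (50.0 to 51.4) already had a WT −Dox peak. Gained sites made up 45.4% of the merged sites and lost sites 8.03%, a ratio of 5.65 (exact binomial interval 5.36 to 5.96). The 10000 highest-scoring peaks of each list were also merged and classed anew. Of these sites, 2976 were in the WT +Dox +BYK selection only and 2935 in the WT −Dox selection only, a ratio of 1.01. A site in 1 selection only can still have a lower-scoring peak in the other whole list. The WT −Dox list held 10959 peaks and the WT +Dox +BYK list 18371, and the depth behind each is unknown. Read depth, enrichment and the number of bound sites all set the length of a list, and these were not told apart.

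**Figure D1:**
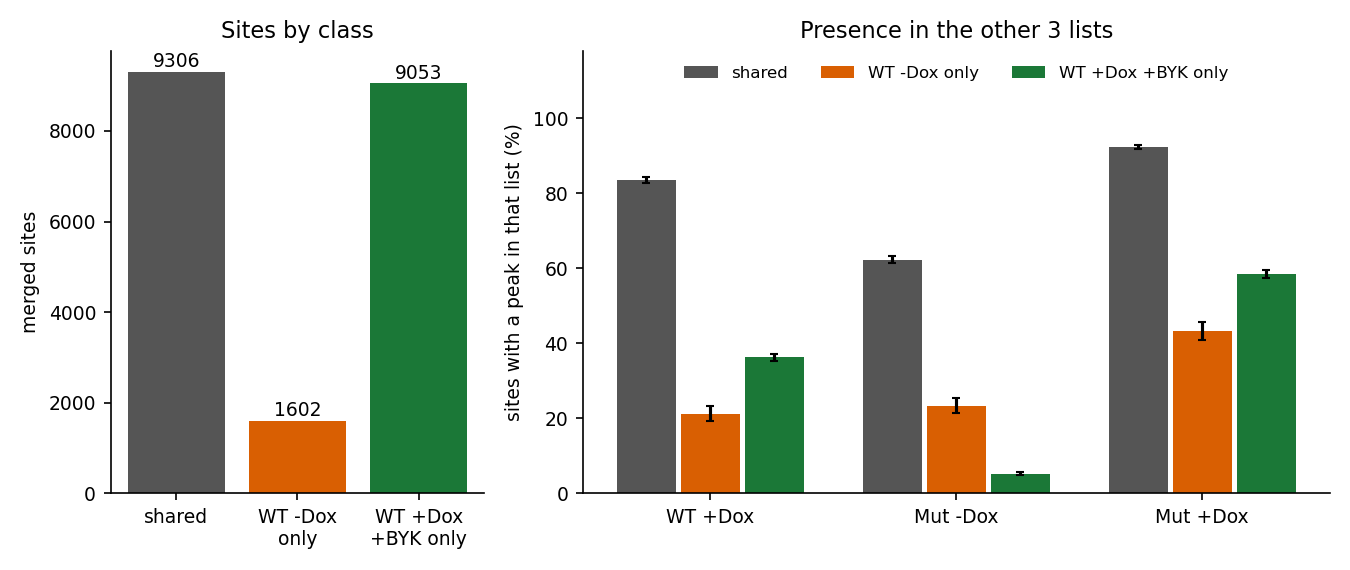
Left, number of merged sites in each class, as bars. Right, percent of the sites of each class with a peak in each of the 3 lists that did not define the classes, with 95% Wilson intervals as error bars. Of the gained sites (green), 36.2% were also peaks of WT +Dox and 5.21% of Mut −Dox, while lost sites (orange) were found in Mut −Dox in 23.3%.

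The gained sites recurred mainly in the other induced lists. Of the 9053 gained sites, 3277 (36.2%, interval 35.2 to 37.2) had a peak in WT +Dox and 5285 (58.4%) in Mut +Dox, against 472 (5.21%) in Mut −Dox. Both induced lists had 2693 of them (29.7%), Mut +Dox without WT +Dox had 2592 (28.6%), and none of the 3 other lists had 3120 (34.5%). Of the 1602 lost sites, 339 (21.2%) had a WT +Dox peak, 373 (23.3%) a Mut −Dox peak and 694 (43.3%) a Mut +Dox peak, and 668 (41.7%) were in no other list. Shared sites had a WT +Dox peak in 83.6% and a Mut +Dox peak in 92.4% of cases, and 350 (3.76%) were in neither of these nor in Mut −Dox. List lengths set part of these shares: WT +Dox held 12384 peaks, Mut +Dox 17816 and Mut −Dox 6898.

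Sites found in 1 list ranked low in it by the authors' score, a value per peak whose scale the lists do not name and which was used here only to rank peaks within a list. The median gained site stood at percentile 30.6 of the WT +Dox +BYK scores and the median lost site at percentile 21.4 of the WT −Dox scores. Gained sites that WT +Dox also had stood at a median percentile of 48.9 (3277 sites), those absent from WT +Dox at 22.9 (5776 sites), and those in no other list at 17.8. Among gained sites scoring above the median of their list, 71.6% had a WT +Dox peak and 88.1% a Mut +Dox peak. The gained sites with high scores were thus largely sites of the other induced lists, and those in no other list ranked lowest.

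**Figure D2:**
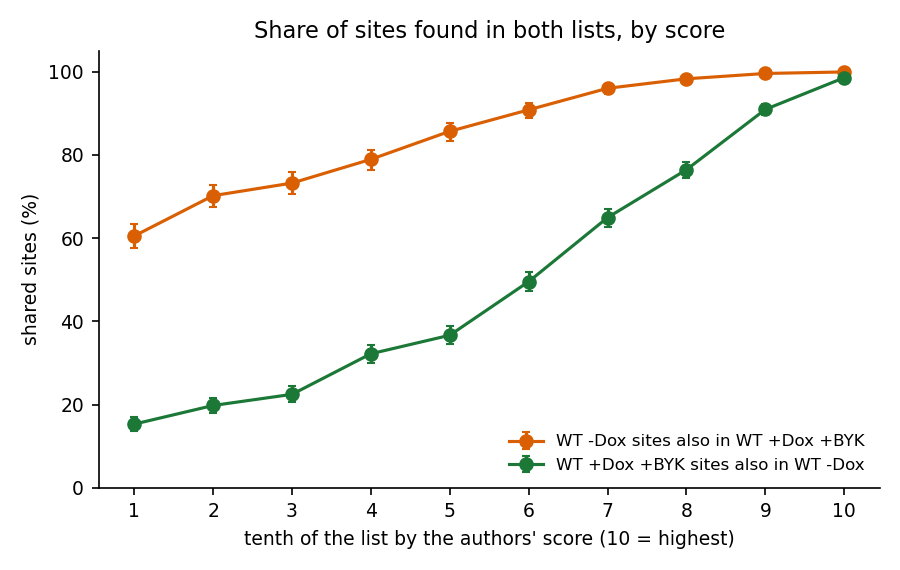
Percent of sites also found in the other list (vertical axis) by decile of the list ranked by the authors' score (horizontal axis, 10 the highest), with 95% Wilson intervals. For WT −Dox sites the share ran from 60.5% in the lowest decile to 99.9% in the highest, and for WT +Dox +BYK sites from 15.3% to 98.5%.

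The strongest peaks without Dox were almost all retained. In the highest decile of WT −Dox sites 1094 of 1095 had a WT +Dox +BYK peak, and in the lowest decile 660 of 1091. In the highest decile of WT +Dox +BYK sites 1811 of 1838 had a WT −Dox peak, which left 27 gained sites of that rank. The highest-scoring shared site in both lists lay inside Gldc, the glycine decarboxylase gene, at chr19:30106641-30108273, with scores of 1881.52 and 2142.99. In WT −Dox it was followed by sites beside Abhd11, Wnt16, a Wnt ligand, Cp, which encodes ceruloplasmin, and Rpia, an enzyme of the pentose phosphate pathway. In WT +Dox +BYK it was followed by a site inside Fbln1, a matrix fibulin. The next were nearest to Cxcl12, a chemokine, at 142 kb, to Wnt16 at 7.79 kb and to Auh at 12.5 kb.

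The 8 highest-scoring gained sites were all peaks of WT +Dox and Mut +Dox as well. The first, at chr6:93112980-93114126 with a score of 819.21, lay 169 kb from the span of Adamts9, a secreted metalloprotease. The next lay inside Cpa6, a carboxypeptidase, and the one after it 28.6 kb from Tnks, which encodes tankyrase, a PARP family member. The site inside Ncam1, a neural cell adhesion molecule, was the only one of the 8 with a Mut −Dox peak. The others were nearest to Jag1, a Notch ligand, at 547 kb, to Frk, a Src-family kinase, at 3.13 kb and to Sipa1l2 at 73.9 kb, or lay inside Hunk, a protein kinase gene. Distances are to protein-coding spans, and the site nearest to Jag1 lay 0.083 kb from a RefSeq transcription start.

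The highest-scoring lost sites differed in kind. All 8 had a Mut −Dox peak, 6 had a WT +Dox peak, 6 had a Mut +Dox peak and 5 had peaks in all 3 of these lists. The first, at chr16:3231503-3237960, was 6458 bp wide and lay nearest to the olfactory receptor gene Olfr161, at 358 kb. The next, 5087 bp wide, was nearest to the vomeronasal receptor gene Vmn1r2, at 89.8 kb. A site of 9033 bp lay 62.0 kb from Cwc22, a splicing factor. The others were inside Eaf2, Fbxl13 and Sf1, a splicing factor, or nearest to Gm5885 at 98.8 kb and Dph6 at 20.2 kb, and were 693 to 931 bp wide. Among lost sites, 24 of 1602 were at least 2000 bp wide, against 35 of 9053 gained (0.387%) and 85 of 9306 shared sites (0.913%), and the median widths were 684, 791 and 886 bp.

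Gained sites lay somewhat farther from gene starts than shared sites. They were within 1 kb of a transcription start in 7.79% of cases (interval 7.25 to 8.36), against 9.98% (9.39 to 10.6) of shared and 9.36% (8.03 to 10.9) of lost sites. They were inside a protein-coding gene span in 49.2%, 47.6% and 45.9% of cases in the same order of gained, shared and lost, and over 50 kb from any span in 21.8%, 20.9% and 25.5%. A shared site lay within 50 kb of 57.0% of gained and 49.4% of lost sites. Gained sites outnumbered lost sites on each autosome and on X, by 4.35 times on X to 8.16 times on chromosome 12, and Y held 3 lost sites and no other. Exon, intron and UTR classes were not analysed here, and the intervals take sites as independent, which neighbouring sites are not.

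The palindrome TTGCGCAA was found at promoters under shared peaks and at none of the promoters under gained peaks. Of the 32851 RefSeq promoter windows of 300 bases (250 before and 50 after the start), 60 (0.183%) held it. It was in 36 of 974 windows under a shared site (3.70%, Wilson interval 2.68 to 5.07), in 3 of 145 under a lost site (2.07%, 0.706 to 5.91), in 0 of 605 under a gained site (a count of 0 allows a share of up to 0.496%, taken as 3 counts) and in 21 of 31129 windows with no site of either list (0.0675%). Counted by site, where windows of neighbouring starts do not repeat, it was in 29 of 761 shared, 2 of 112 lost and 0 of 487 gained sites, where the same limit is 0.616%. With sites above the median score of their list it was in 28 of 626 windows of shared and 0 of 132 of gained sites, and in 0 of the 222 windows of gained sites that WT +Dox also had, with limits of 2.27% and 1.35% for the counts of 0. Lost sites above the median score had it in 0 of 17 windows, with a limit of 17.6%. Ptgs2, Smad6 and Rpia were among the shared windows with the palindrome. The comparison covers promoters only, since sequences of the other sites were not analysed here.

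**Figure D3:**
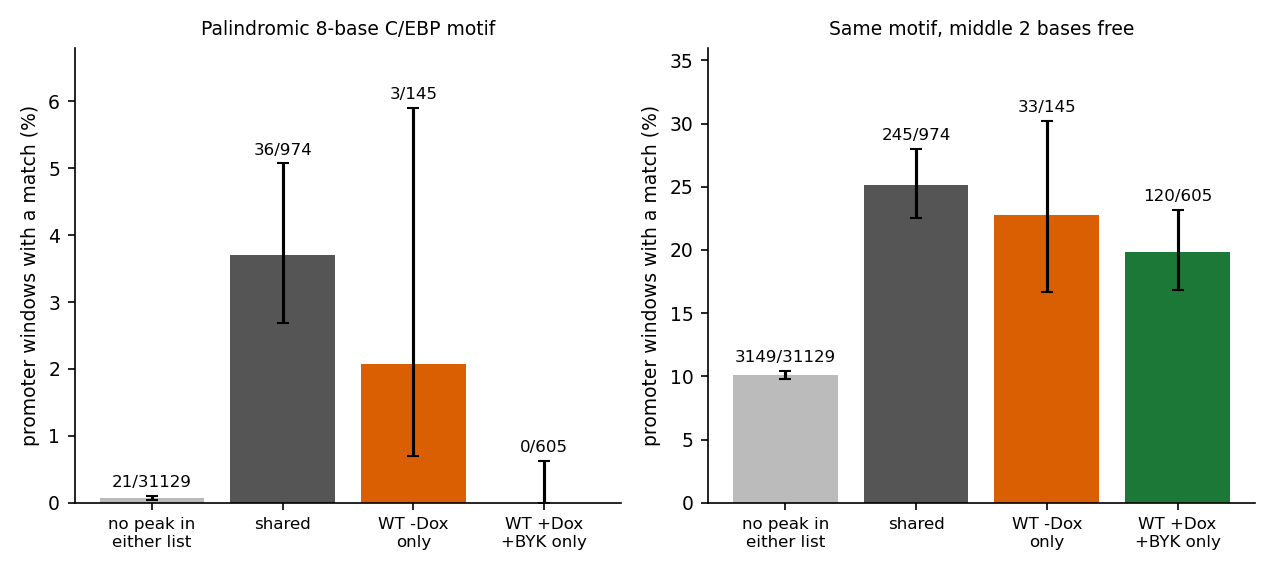
Percent of promoter windows of 300 bases with a match to the palindromic C/EBP motif (left) and to the same motif with its middle 2 bases free (right), for windows with no site of either list and by class of site. Error bars are 95% Wilson intervals and the fractions on the bars are windows with a match over all windows, with 0 of 605 under gained sites on the left and 120 of 605 on the right.

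The looser motif TTGCNNAA, which includes the palindrome, was found in every class. It was in 10.1% of windows with no site, 25.2% of shared, 22.8% of lost and 19.8% (interval 16.9 to 23.2) of gained windows, beside 10.8% of all windows. Gained sites above their list's median score had it in 27.3% of windows and shared ones in 28.1%. TTGCATCA, the composite of a C/EBP and an ATF site, was in 0.895% of all, 3.29% of shared, 0.690% of lost and 2.15% of gained windows. TGANTCA, the AP-1 motif, was in 7.81%, 6.78%, 8.97% and 9.42%, and CACGTG, the E-box, in 7.15%, 10.6%, 8.97% and 7.44%, in the same order. All motifs were searched on both strands. The median GC content of the windows was 52.7% for all, 57.0% for shared, 59.0% for lost and 55.3% for gained, with a median of 7, 18, 19 and 14 CpG dinucleotides, and the part of base composition in these shares was not tested.

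Among the 389 genes of the 17 lists described below, 26 symbols had a promoter window under a shared site, 10 under a gained and 3 under a lost site, beside 857, 528 and 129 of all 27025 symbols. The shared ones included C3 and Saa3, acute phase genes, Pdgfra, a receptor that marks fat cell progenitors, and Per1, a clock gene. The gained ones were Lcn2 and Ptx3, shown above, and Ankrd1, a YAP target, Cdkn1b, a cyclin-dependent kinase inhibitor, Cxcl12, Gadd45g, Id3, Nadsyn1, which makes NAD, Nr1h3, the liver X receptor α, and Tnfaip3, an inhibitor of NF-κB signalling. The Lcn2 promoter peak had a score of 131.83 and recurred in WT +Dox, and that of Ptx3 had 105.78 and recurred in Mut +Dox. The promoter peaks of Cxcl12 (51.12) and Nadsyn1 (52.31) were near the lowest score of the list, 50.01, and in no other list. The lost ones were Atf5, Ccnd3 and Cdkn2b, which code for a stress-response bZIP factor, cyclin D3 and the cell cycle inhibitor p15. Some genes, Lpl among them, had no promoter window and could not be counted here.

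Sites were counted for a protein-coding gene where their midpoints lay no more than 50 kb from its span. Of 21883 genes, 12549 had a site in at least 1 of the lists. More sites after induction with inhibitor were counted at 7510 of these (59.8%), fewer at 1058 (8.43%) and the same number at 3981. The median difference was 1 site and the mean 0.915. Sites with inhibitor and none without Dox were found at 2897 genes, and the reverse at 489. With the 10000 highest-scoring peaks of each list, 2741 of 10353 genes (26.5%) had more and 3025 (29.2%) fewer, so the direction over all genes depends on the length of the lists. The gene counts below are read against these shares. Keeping equally many peaks takes away the excess of the longer list by construction, so a surplus missing at equal length is no trait of a gene list. The sites of a gene list are summed over its genes, so a site near several of them counts for each. Where gained or shared sites of a list are compared with other peak lists or a median score, each site counts once.

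The largest surpluses were at genes with long spans and ranged from 12 to 18 sites. Dlc1, whose span is chr8:36567739-36953184, had 9 sites in WT −Dox, 24 in WT +Dox +BYK and 16 in WT +Dox, and 14 of its 15 gained sites lay inside the span. Rad51b, of homologous recombination, had 17 and 35 sites without Dox and with inhibitor. Tenm4, a teneurin, had 6 and 19, Sorbs2, an adaptor of the actin cytoskeleton, 6 and 18, and Lpp, a LIM protein of focal adhesions, 18 and 30. All 5 also had a surplus with lists of equal length, of 2 to 6 sites. This is no independent check, since the 5 genes were chosen by their difference in the whole lists and the shorter lists are parts of those. Counts were not adjusted for the length of the span.

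The genes with the greatest deficit had 3 fewer sites each. Slc2a1, the glucose transporter GLUT1, had 5 sites in WT −Dox and 2 in WT +Dox +BYK within 50 kb of its span (chr4:119108745-119137330). Its 3 lost sites scored 63.82 to 77.48, below the WT −Dox median of 101.87, and none was in any other list. Gsk3b, a kinase of insulin and Wnt signalling, had 3 and 0 sites, and Bbox1, an enzyme of carnitine synthesis, had 4 and 1. Rpgrip1l, a ciliary protein, had 6 and 3, with 4 sites lost and 1 gained, and Zfp978, a zinc finger gene, 3 and 0.

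**Figure D4:**
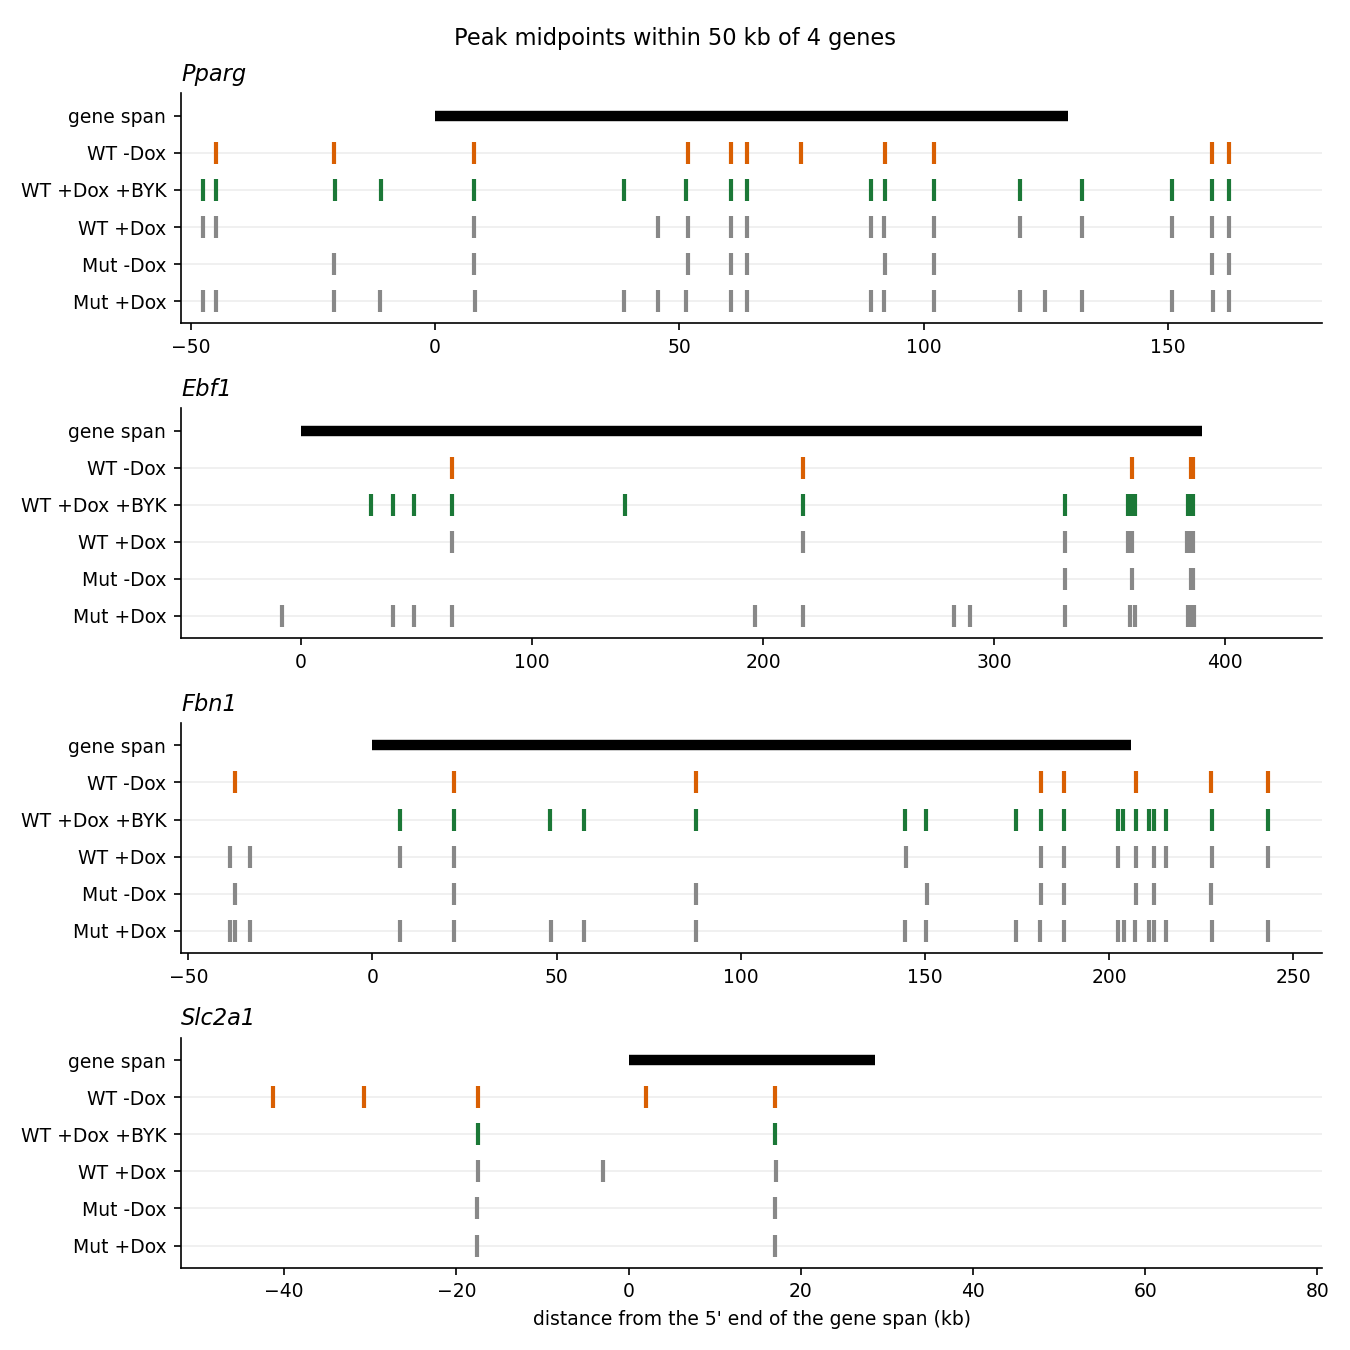
Midpoints of the peaks of the 5 lists (rows) within 50 kb of Pparg, Ebf1, Fbn1 and Slc2a1, by distance in kb from the 5′ end of the gene span (black bar). WT −Dox had 11, 5, 8 and 5 sites and WT +Dox +BYK 17, 13, 18 and 2, in that order of genes.

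Genes of adipogenic transcription factors held more sites with inhibitor by the whole lists but fewer at equal length, and Pparg had the most with inhibitor, 17. The list of 25 C/EBP family and adipogenic factors had 63 sites in WT −Dox and 98 in WT +Dox +BYK, with more at 13 of the 22 genes with a site and fewer at 1, while at equal length it had 59 and 53. Pparg, the receptor that drives fat cell differentiation, shared 10 of its 18 sites, gained 7 and lost 1, but its difference was 0 at equal length. Its gained sites scored 57.89 to 268.67, and 5 of the 7 were in WT +Dox and all 7 in Mut +Dox. The peak over the Pparg promoter printed above scored 273.35 in WT −Dox, percentile 86.0 of that list, and 1058.06 in WT +Dox +BYK, percentile 99.6 of that list.

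Elsewhere in this list, Ebf1 gained 8 sites and Cebpa, Cebpb and Cebpd 3 together. Ebf1, an early B cell factor that also acts in fat cells (chr11:44618100-45008096), had 5 sites without Dox, 8 in WT +Dox and 13 with inhibitor, and its 8 gained sites all lay inside the gene, 6 of them also in Mut +Dox and 3 in WT +Dox. At equal length Ebf1 had 3 more with inhibitor. Cebpa had 1 and 2 sites, the added one with a score of 54.23 and in no other list. Cebpb itself had 0 and 2 within 50 kb, with scores of 64.55 and 71.62, and Cebpd had none in either list. Klf5, an early adipogenic factor, had 1 site without Dox and 0 with inhibitor.

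Genes of the mature fat cell had more sites with inhibitor by the whole lists, as each of the 17 gene lists did. The 30 adipocyte lipid, glucose and secreted factor genes had 35 and 68 sites, with more at 19 and fewer at 1 of 26 genes with a site, and 33 and 38 at equal length. Of the 39 gained sites 15 were also peaks of WT +Dox and 20 of Mut +Dox, and 15 were in no other list. Above the median score of WT +Dox +BYK were 12 of the 39, beside 24.3% of all gained sites. Fabp4, which binds fatty acids in adipocytes, had 0 and 1 site, with a score of 52.17, which was also a peak of WT +Dox and Mut +Dox. Fabp5, Fasn, the fatty acid synthase, Lpin1, a phosphatidate phosphatase, and Nnat likewise had sites in WT +Dox +BYK and none in WT −Dox, and Dgat1, of triglyceride synthesis, had the reverse.

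Lpl, the lipoprotein lipase, had 6 sites without Dox, 5 in WT +Dox and 10 with inhibitor. Its 4 gained sites scored 66.35 to 111.16, and 1 was in WT +Dox and none in either Mut list. Adipoq, the gene of adiponectin, had 3 and 5 sites by the whole lists, all 5 scoring below the median, and 1 fewer with inhibitor at equal length. Slc2a4, the insulin-responsive glucose transporter, had 1 and 4, and Plin1, a lipid droplet coat protein, 1 and 2. At equal length Lpl, Slc2a4 and Plin1 each had 1 more with inhibitor. The differences of Fabp4, Adipoq, Slc2a4 and Plin1 were each 0 within 10 kb and also by nearest gene. Those of Lpl were 3 within 10 kb and 4 by nearest gene. The 17 insulin and IGF signalling genes had 31 and 50 sites, with more at 10 and fewer at 1 of 14, and 28 and 28 at equal length. Irs2, an insulin receptor substrate, had 0 and 2, and Igf1 had 5 and 4.

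Genes of NAD and ADP-ribose metabolism, the pathway of the inhibitor's target, had more sites with inhibitor at 13 of the 24 members with a site (54.2%), beside 59.8% of all genes with a site. The 28 genes had 44 and 71 sites, with fewer at 1 gene, and 39 and 43 at equal length. The share with more sites was higher within 10 kb (10 of 14 genes) and by nearest gene (9 of 12). Over all genes with a site these were 4084 of 7527 and 4328 of 7271. With each list cut at its median score the share was 13 of 15, beside 4620 of 8823. At equal length 10 of 21 had more and 7 fewer, beside 26.5% and 29.2% of all genes with a site. Parp1 itself had 2 sites in each list and 1 in WT +Dox, and Nampt, the rate-limiting enzyme of NAD salvage, had 1 in each. Macrod2, a hydrolase that removes ADP-ribose, had 8 and 16 sites, with 1 more at equal length, and 4 of its 8 gained sites were in WT +Dox. Tnks, Macrod1, Parg, which degrades poly(ADP-ribose) chains, Nmnat1, Nadsyn1 and Adprhl2 had sites in WT +Dox +BYK and none in WT −Dox, and Tnks and Macrod1 each had 1 in WT +Dox. Parp10 was the 1 gene with fewer, at 2 and 1. Of the 30 gained sites of the list, 9 were in WT +Dox and 16 in no other list.

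At chemokine and cytokine genes, 29 of 45 shared sites scored above the median of WT −Dox and 5 of 32 gained sites above that of WT +Dox +BYK, beside 56.9% and 24.3% over all shared and all gained sites. Summed over genes, the 22 chemokine and cytokine genes had 57 and 97 sites, with more at 16 and fewer at 1 of 21, and 51 and 58 at equal length. Counted once each, the sites of the whole lists were 45 shared, 4 lost and 32 gained. Ccl2 and Ccl7, neighbouring monocyte chemokine genes that count the same cluster of sites, each had 3 and 9, with 1 more at equal length. The 3 shared sites of Ccl2 scored 266.07 to 597.68 in WT −Dox, while its 6 gained sites scored 50.90 to 105.59 and 1 of them was in WT +Dox. Csf1, the macrophage growth factor, had 6 and 12, and Il6 had the same 4 sites in both lists. At equal length Csf1 and Il6 each had 1 more with inhibitor. The 21 acute phase and innate immune genes had 47 and 78 sites, with more at 15 and fewer at none of 20, and 46 and 47 at equal length. Ptx3 had 0 and 3, with a surplus of 3 also at equal length.

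The AP-1 and bZIP, stress and DNA damage, and glucocorticoid lists each had more sites with inhibitor by the whole lists. At equal length they did not, and neither did all genes together, with 16372 sites in WT −Dox and 16113 in WT +Dox +BYK. The list of 26 AP-1 and bZIP genes had 44 and 58 sites, with more at 10 and fewer at 2 of 20, and at equal length 44 and 36. Junb had 1 and 3 sites, and 5 in WT +Dox. Jdp2, a repressor that pairs with Jun proteins, had 3 and 4, and Fos, Jun and Jund had none in either list. The 18 stress and DNA damage genes had 33 and 46 sites, with more at 12 and fewer at 1 of 17, and 30 and 29 at equal length. The 14 glucocorticoid receptor and target genes had 35 and 56, with more at 10 and fewer at none of 14, and 33 and 33 at equal length. Nr3c1, the glucocorticoid receptor, had 1 and 4, Fkbp5, its co-chaperone, 4 and 5 but 1 fewer at equal length, and Dusp1, a phosphatase of MAP kinases, 2 and 7, with 1 in WT +Dox. At equal length Nr3c1 had 1 more with inhibitor and the difference of Dusp1 was 0.

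Genes that hold or mark the preadipocyte state had more sites with inhibitor at most members by the whole lists, and all 17 gene lists had more sites in that comparison. The 32 Wnt, preadipocyte and anti-adipogenic genes had 56 and 96 sites, and 53 and 61 at equal length. By the whole lists 23 of 27 (85.2%) had more and none fewer, beside 59.8% of all genes with a site. At equal length 10 of 24 had more and 5 fewer. Dlk1, a preadipocyte factor that blocks differentiation, had 0 and 1 site, with a score of 127.11, also in WT +Dox and Mut +Dox. Runx1, a transcription factor of progenitor cells, had 4 and 9 and Sox9 0 and 1, while Gata2, a repressor of adipogenesis, had none in either list. The surplus of Runx1 was 4 at equal length. Of the 43 gained sites of the list 19 were in WT +Dox and 27 in Mut +Dox.

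The extracellular matrix list held the most sites of the 17 lists in both conditions. The 36 extracellular matrix and protease genes had 113 and 179 sites, with more at 26 and fewer at 1 of 33, but 106 and 101 at equal length. Fbn1, the fibrillin of microfibrils (chr2:125300594-125506485), had 8 sites without Dox, 13 in WT +Dox and 18 with inhibitor, and all 11 of its gained sites were in Mut +Dox and 5 in WT +Dox. Dcn, the proteoglycan decorin, had 7 and 10 by the whole lists and 2 fewer with inhibitor at equal length, Col1a2, a chain of type I collagen, 4 and 9, and Col6a2 4 and 2. At equal length Fbn1 had 1 more with inhibitor, and the differences of Col1a2 and Col6a2 were 0. The 23 TGF-β, BMP and YAP/TEAD genes had 39 and 68 sites, with more at 13 and fewer at 1 of 20, and 35 and 45 at equal length. Smad3, which carries the TGF-β signal, had 3 and 8 with 4 more at equal length, and Wwtr1, the gene of TAZ, had 2 and 1. Of the 33 gained sites of this list 19 were in WT +Dox. The 22 cell cycle genes had 24 and 34 sites, with more at 8 and fewer at 1 of 15, and 23 and 19 at equal length.

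**Figure D5:**
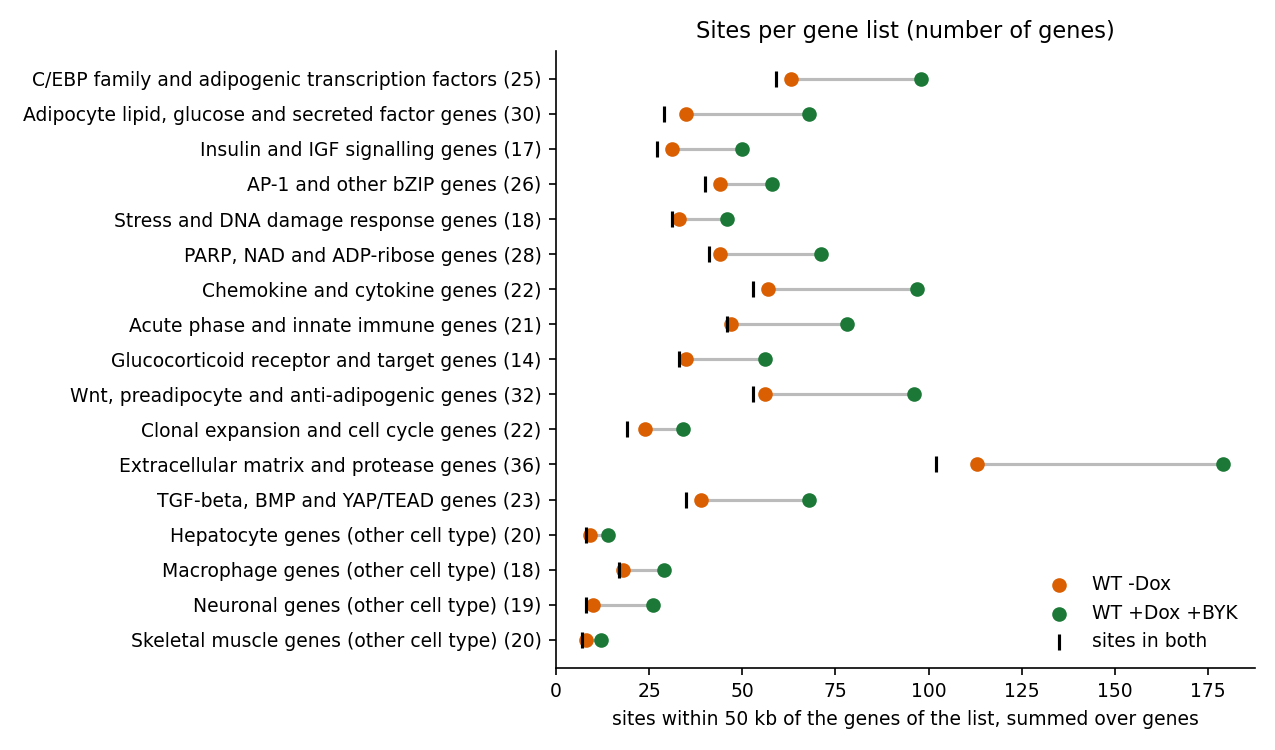
Sites within 50 kb of the genes of each of 17 lists, summed over the genes, in WT −Dox (orange) and WT +Dox +BYK (green), with the sites common to both as black ticks. Each list had more sites with inhibitor by the whole peak lists, while with the 10000 highest-scoring peaks 7 lists had more, 7 fewer and 3 the same number.

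Lists of other cell types also had more sites with inhibitor by the whole peak lists, and at equal length 1 of the 4 did. The 20 hepatocyte genes had 9 and 14 sites, the 18 macrophage genes 18 and 29, the 19 neuronal genes 10 and 26 and the 20 skeletal muscle genes 8 and 12. Among genes with a site, more were counted at 5 of 10 hepatocyte, 8 of 12 macrophage, 8 of 10 neuronal and 4 of 12 muscle genes. Fewer were counted at 1 muscle gene. The next values are sites in WT −Dox and in WT +Dox +BYK again. At equal length these became 8 and 7, 17 and 20, 10 and 10, and 7 and 4. Over the 17 lists the share of bound genes with more sites ran from 33.3% (skeletal muscle) to 85.2% (Wnt, preadipocyte and anti-adipogenic genes), around the 59.8% of all bound genes. Peak lists do not measure RNA, so the labelled cell type was not checked by expression. Of the markers, 3 of 7 preadipocyte genes had a site without Dox and 5 with inhibitor, 7 and 8 of 8 fat cell genes, 4 and 4 of 5 macrophage genes, 3 and 3 of 4 neuronal genes, 2 and 2 of 5 hepatocyte genes and 0 and 1 of 4 muscle genes.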

How the data were processed

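The 20 libraries, ChIP or input, cover 5 conditions of 3T3-L1 cells in 10 groups, each of 2 libraries. Bowtie, bedtools and the build mm10 were used, per the submitters' processing notes, and MACS begins each peak's name, per the deposited files. Not given in the sources used here are the version and threshold of the caller, the use of input and any pooling of replicates. The 5 deposited lists hold peaks with a score, the authors' own value, of unnamed scale and at least 50.01 in both lists compared.

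Peaks overlapping by 1 bp or more were merged. Shares carry 95% Wilson intervals, the gained to lost ratio an exact binomial interval, and both cover counting error only. Sites were assigned to protein-coding spans (GRCm38.p6) within 50 kb of their midpoint, and all 389 list genes were matched. A gene was called at a difference of 1 site. Merging and counting were tested on simulated data. The members, the lists and the genes to name were chosen with earlier results of these data known. The named genes were a panel of 24, the 10 genes of the lists and the 5 genes of the genome with the greatest difference per direction, and the genes at the 8 highest-scoring sites of each single-list class and the 5 highest-scoring shared sites of each list. Other genes named are members of the lists or are genes of promoter windows or of newly bound members, chosen after their values were seen. Motifs were searched in 32851 RefSeq promoter windows of 27025 symbols, and other sites had no sequence analysed here. Alternatives were other overlap rules, score filters, equal lengths, covered bp and other gene windows, and 4 were added after seeing the data: distance to a transcription start, promoters under sites above the median score, lists restricted to genes with a site, and promoters under sites that WT +Dox shares. The tools were pandas 2.3.3, numpy 2.4.6 and scipy 1.17.1 on Python 3.11.15, with figures from matplotlib 3.10.9.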

Additional observations from a re-analysis of the deposited data

How the results depend on the processing

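The number of sites gained and lost depended on the length of the lists, while the overlap rule did not move it. Requiring 50% overlap, matching midpoints within 500 bp, widening peaks by 500 bp or keeping chromosomes 1 to 19 and X left the class counts within 1.5 times. For the score filters the lists were cut first and the classes drawn anew. A site in 1 cut list only can thus have a lower-scoring peak in the other whole list. With peaks above the median score of their own list, 4736 sites were in both cut lists. There were 729 in WT −Dox only and 4449 in WT +Dox +BYK only, 86.7% of WT −Dox sites were kept and the ratio was 6.10. This cut takes the same share of each list, so the longer list stays longer by construction, with 9185 sites against 5465. With the 10000 highest-scoring peaks there were 2935 in WT −Dox only and 2976 in WT +Dox +BYK only. Here 70.5% were kept and the ratio was 1.01. With 5000 there were 3507 in both and 1493 in WT +Dox +BYK only, 70.3% kept and a ratio of 1.01. By covered bp, 82.9% was kept and the ratio was 6.42.

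The next shares keep the classes of the whole lists and take the sites scoring above the median, which were 2197 gained and 169 lost sites. Gained, lost and shared sites of this kind were present in WT +Dox in 71.6%, 33.7% and 93.9%. They were present in Mut −Dox in 9.24%, 61.5% and 84.3% and in Mut +Dox in 88.1%, 65.1% and 97.9%. Genes with more and with fewer sites numbered 4084 and 626 within 10 kb and 4328 and 579 by nearest gene. They numbered 2741 and 3025 with the 10000 highest-scoring peaks and 4620 and 701 with each list cut at its median score.

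With the 10000 highest-scoring peaks the difference with inhibitor turned to -6 sites for the C/EBP and adipogenic list, -8 for AP-1, -1 for stress, -4 for cell cycle, -5 for extracellular matrix, -1 for hepatocyte and -3 for muscle genes, and to -1 for Adipoq, -2 for Dcn and -1 for Fkbp5. Ccnd3 turned to 1 with each list cut at its median score and Igf1 to 1 by nearest gene. Keeping equally many peaks takes away the excess of the longer list by construction.

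No paired analysis was possible because the lists carry no replicate numbers, and leaving out replicates was not run for the same reason. Depth is unknown, so a site missing from a list is not shown to be unbound.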

Other observations

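Assigning each site to the nearest gene alone, at any distance, brought out loci whose added sites lie beyond 50 kb. Myc, a driver of cell growth, had the same 2 sites in both lists within 50 kb but 16 more with inhibitor by nearest gene. Adamts5, an aggrecanase, had 2 and 4 sites within 50 kb and 13 more by nearest gene. Thbs1, the gene of thrombospondin 1, had 1 and 6 within 50 kb and 10 more by nearest gene, and Pik3r1, a regulatory subunit of PI3 kinase, 1 and 4 and 9 more. Cxcl12 had 5 and 6 and 8 more. These genes were chosen after their values were seen, and the nearest gene need not be the one a site acts on.

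The peak over the promoter of Saa3, an acute phase gene, was shared but ranked high in 1 list and low in the other: its score of 202.5 was at percentile 78.1 of WT −Dox and its score of 63.52 at percentile 18.8 of WT +Dox +BYK. WT +Dox had a peak there and neither Mut list did. It was chosen after its values were seen.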
